A study of Homo sapiens with 15 samples.

Results

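CXCR4, its ligand CXCL12, the second CXCL12 receptor ACKR3 and the apelin receptor APLNR were followed over a time course of MSX1 induction in IMR32 cells, an established human neuroblastoma line. The members were every probe set of the array whose single annotated gene symbol was one of these 4 genes. They came to 9 probe sets, 3 for CXCR4, 2 for CXCL12, 3 for ACKR3 and 1 for APLNR. All 9 passed the filter on low signal, as did 30676 probe sets in all, which stand for 12880 named genes. CXCR4 and APLNR were picked because their signal was already known to differ between induced and uninduced cells in these arrays, so their values are given as a description with no test, and nothing is supported with them. CXCL12 and ACKR3 were picked as partners of CXCR4 and were tested. Earlier results of these data were known when members and gene lists were chosen, which limits how their p-values and counts can be read.

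All cells carried MSX1, a homeobox transcription factor gene, in a form that doxycycline in the medium switches on. The groups were cells with doxycycline sampled at t = 8, 24 and 48, cells grown alongside without it and sampled at t = 48, and cells at t = 0, with 3 arrays each. The labels give no unit for these times, and the groups with doxycycline have no uninduced counterpart at t = 8 or 24. No cells without the MSX1 construct are among the samples analysed here, so the drug and the induced gene cannot be told apart. Nothing in the labels says whether the 3 replicates were separate cultures, and the p-values measure only the spread between these arrays, which may be technical.

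CXCR4 is a chemokine receptor coupled to inhibitory G proteins that draws cells towards CXCL12, also called SDF-1. ACKR3, formerly CXCR7, binds the same ligand, recruits arrestins and takes CXCL12 out of the surroundings without classical G protein signalling. APLNR is the receptor for the peptides apelin and ELABELA (gene APELA) and is best known from blood vessels and the heart. In neuroblastoma, CXCR4 and CXCL12 are known for their part in migration and homing to bone marrow.

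Start-site sequence was matched in RefSeq (GRCh38.p14) for CXCR4 and CXCL12, and the 250 bases before the first listed start of each are shown because at t = 8 the signal of CXCR4 was lower and that of CXCL12 higher than at t = 0. Both lie on the minus strand and are written 5′ to 3′ on it, at chr2:136118150-136118399 for CXCR4 and chr10:44385098-44385347 for CXCL12. Capitals mark, in this order, the 10-letter palindrome that the activator NRF1 recognises and a TATA match.
CXCR4: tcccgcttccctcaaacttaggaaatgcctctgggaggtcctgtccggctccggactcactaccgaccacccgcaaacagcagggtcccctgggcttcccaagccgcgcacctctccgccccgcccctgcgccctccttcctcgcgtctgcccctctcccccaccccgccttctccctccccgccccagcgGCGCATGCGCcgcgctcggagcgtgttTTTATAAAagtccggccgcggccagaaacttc
CXCL12: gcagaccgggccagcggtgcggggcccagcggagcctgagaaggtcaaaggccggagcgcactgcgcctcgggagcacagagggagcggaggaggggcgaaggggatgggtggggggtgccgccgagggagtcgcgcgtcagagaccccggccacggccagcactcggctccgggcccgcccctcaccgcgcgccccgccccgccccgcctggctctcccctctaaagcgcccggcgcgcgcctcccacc

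The CXCR4 stretch was 68.0% G or C with 24 CpG, and the CXCL12 stretch was 78.0% G or C with 31 CpG. The medians over all 35116 such windows of 27305 genes were 58.0% and 11 CpG. Both strands were searched for 6 motifs. The NRF1 palindrome stood once in the CXCR4 window, its first base 59 bases before the start, and is present in 1.03% of all windows. TATAAA matched there on each strand in overlapping letters, 32 and 30 bases before the start, and 10.7% of all windows hold it. GCGTG, a hypoxia-response core, stood once, 39 bases before the start, and 32.2% of windows hold it. Its variant ACGTG, held by 18.5% of windows, was not there. The homeodomain core TAAT, in 47.4% of windows, and TAATTG, in 6.7%, did not occur in this CXCR4 window. None of the 6 motifs was found in the CXCL12 window. CXCR4 has further listed starts: the window before the second held none of the motifs, and that before the third held 2 TAAT and 2 GCGTG matches and none of the others. These matches describe letters in a window and say nothing of binding.

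Signals are the deposited array intensities, scaled so that the trimmed mean of each array is 100.01, and the median of an array lay between 18.1 and 22.6. Log2 differences are on log2(signal + 5.16), an offset that understates changes of dim probe sets. A level is set against others of the same probe set only. MSX1 has 2 probe sets, and they did not move together. Whether either matches the transcript of the construct is not known. The brighter, 205932_s_at, averaged 161 ± 22.1 and 165 ± 20.7 in induced cells at t = 8 and 24, against 111 ± 13.6 at t = 0 (SD, n = 3 each). Later, at t = 48, it averaged 83.2 ± 14.7 in induced cells and 50.7 ± 4.52 in controls (limma, adjusted p = 0.0278). That call was lost in 4 of 11 other settings and with 5 of 6 arrays left out in turn, and MSX1 signal in control cells at t = 48 was below that at t = 0 (limma adjusted p = 0.0116). Against t = 0 the limma adjusted p of this probe set was 0.192 at t = 8 and 0.0491 at t = 24. The second call was lost in 8 of 11 other settings and in 5 of 6 fits without 1 array. In induced cells at t = 48 its log2 difference from t = 0 was -0.40, which did not pass (limma adjusted p = 0.104). The dimmer, 228473_at, averaged 23.2 ± 0.608 at t = 8 and 21.8 ± 5.29 at t = 24, against 30.4 ± 5.39 at t = 0, and 13.2 ± 6.06 in induced cells at t = 48, against 20.1 ± 9.93 in controls. Its log2 differences were -0.31, -0.41 and -0.42 in these contrasts, which did not pass (limma adjusted p = 0.906, 0.461 and 0.45), and it was lower at t = 48 than at t = 0 by -0.99 (limma adjusted p = 0.0468). Hybridisation controls (bioC) were weak on replicate 1 of t = 24, at 94.4, and on replicate 3 of induced t = 48, at 110.0, against 326.1 to 448.7 on the other 13 arrays. Of 10 neuroblastoma markers, 8 are on the array and 5 (PHOX2A, HAND2, GATA3, MYCN, ISL1) lay above the array median on all 15 arrays. Tyrosine hydroxylase, TH, lay between 0.8 and 11.9, above the median on 0 of 15. Of 7 tested neuroblastoma markers, 1 rose and 1 fell at t = 48 against controls, where 6.27% of the 12880 genes passed. PHOX2A, a transcription factor of noradrenergic neurons, rose to 1585, against 976 in controls (log2 difference 0.70, limma adjusted p = 0.000684). ISL1, a LIM homeodomain factor, fell to 232, against 528 in controls (log2 difference -1.20, limma adjusted p = 0.0131, lost in 2 of 6 fits without 1 array). The part of these changes in the results on the 4 genes was not tested. Since whole cultures were measured, fewer cells of a kind and less RNA per cell cannot be told apart.

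CXCR4 signal was lower in induced cells at every time sampled, on all 3 of its probe sets, and the level in uninduced cells at t = 48 lay where it had been at t = 0. The brightest probe set, 217028_at, read 159.7, 131.1 and 163.3 at t = 0. It read 41.7, 43.6 and 46.3 at t = 8, then 49.4, 49.6 and 54.3 at t = 24. Induced cells at t = 48 read 45.1, 67.2 and 49.9, against 136.8, 157.4 and 152.6 in controls of that time. All 9 induced arrays were below all 6 uninduced ones, with no overlap.

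The low level was already in place at the first time sampled. The mean of 217028_at was 43.9 ± 2.31 at t = 8, against 151 ± 17.6 at t = 0, a log2 difference of -1.67 (SE 0.13) or 3.18-fold less. At t = 24 the mean was 51.1 ± 2.77, with a difference from t = 0 of -1.47, or 2.77-fold less. By t = 48 the mean was 54.1 ± 11.6 in induced cells, against 149 ± 10.8 in controls, a difference of -1.39 or 2.63-fold less (SE 0.13, SD over n = 3). Against t = 0 the induced cells at t = 48 differed by -1.41 and the controls by -0.02. Neighbouring induced times differed by 0.20 (t = 24 against 8) and 0.06 (t = 48 against 24), beside an SE of 0.13.

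Both other CXCR4 probe sets were also lower in every induced group than in uninduced cells. Probe set 211919_s_at read 61.4, 47.7 and 52.1 at t = 8, against 122.8, 144.5 and 115.1 at t = 0. It read 49.2, 59.8 and 53.0 at t = 24, and 55.4, 36.2 and 42.6 in induced cells at t = 48, against 139.7, 120.8 and 122.2 in controls. Its log2 differences were -1.17 at t = 8 and -1.16 at t = 24, each against t = 0, and -1.43 at t = 48 against controls (SE 0.15). Probe set 209201_x_at read 31.3, 47.0 and 45.4 at t = 8, against 105.1, 128.8 and 86.4 at t = 0. It read 25.4, 47.3 and 45.0 at t = 24, and at t = 48 33.8, 28.9 and 32.2 in induced cells, against 118.1, 111.6 and 108.2 in controls. Its log2 differences were -1.27, -1.36 and -1.68 in the same order (SE 0.21). Induced and uninduced arrays did not overlap on either. The 3 probe sets read 1 transcript and are not independent, and the suffixes _s_at and _x_at mark probes that can match other transcripts too.

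Over all 30676 probe sets, the arrays of the groups did not overlap for 28.9% at t = 48 against controls, and against t = 0 for 13.3% at t = 8, 25.2% at t = 24, 33.2% at t = 48 and 16.3% in controls. Between induced times the share was 23.5% at t = 24 against 8 and 17% at t = 48 against 24. All 3 CXCR4 probe sets did not overlap in the contrasts of induced with uninduced cells, and nothing is read from that count beside those shares, since CXCR4 was chosen on these contrasts. The 4 comparisons with t = 0 share its 3 arrays.

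**Figure D1:**
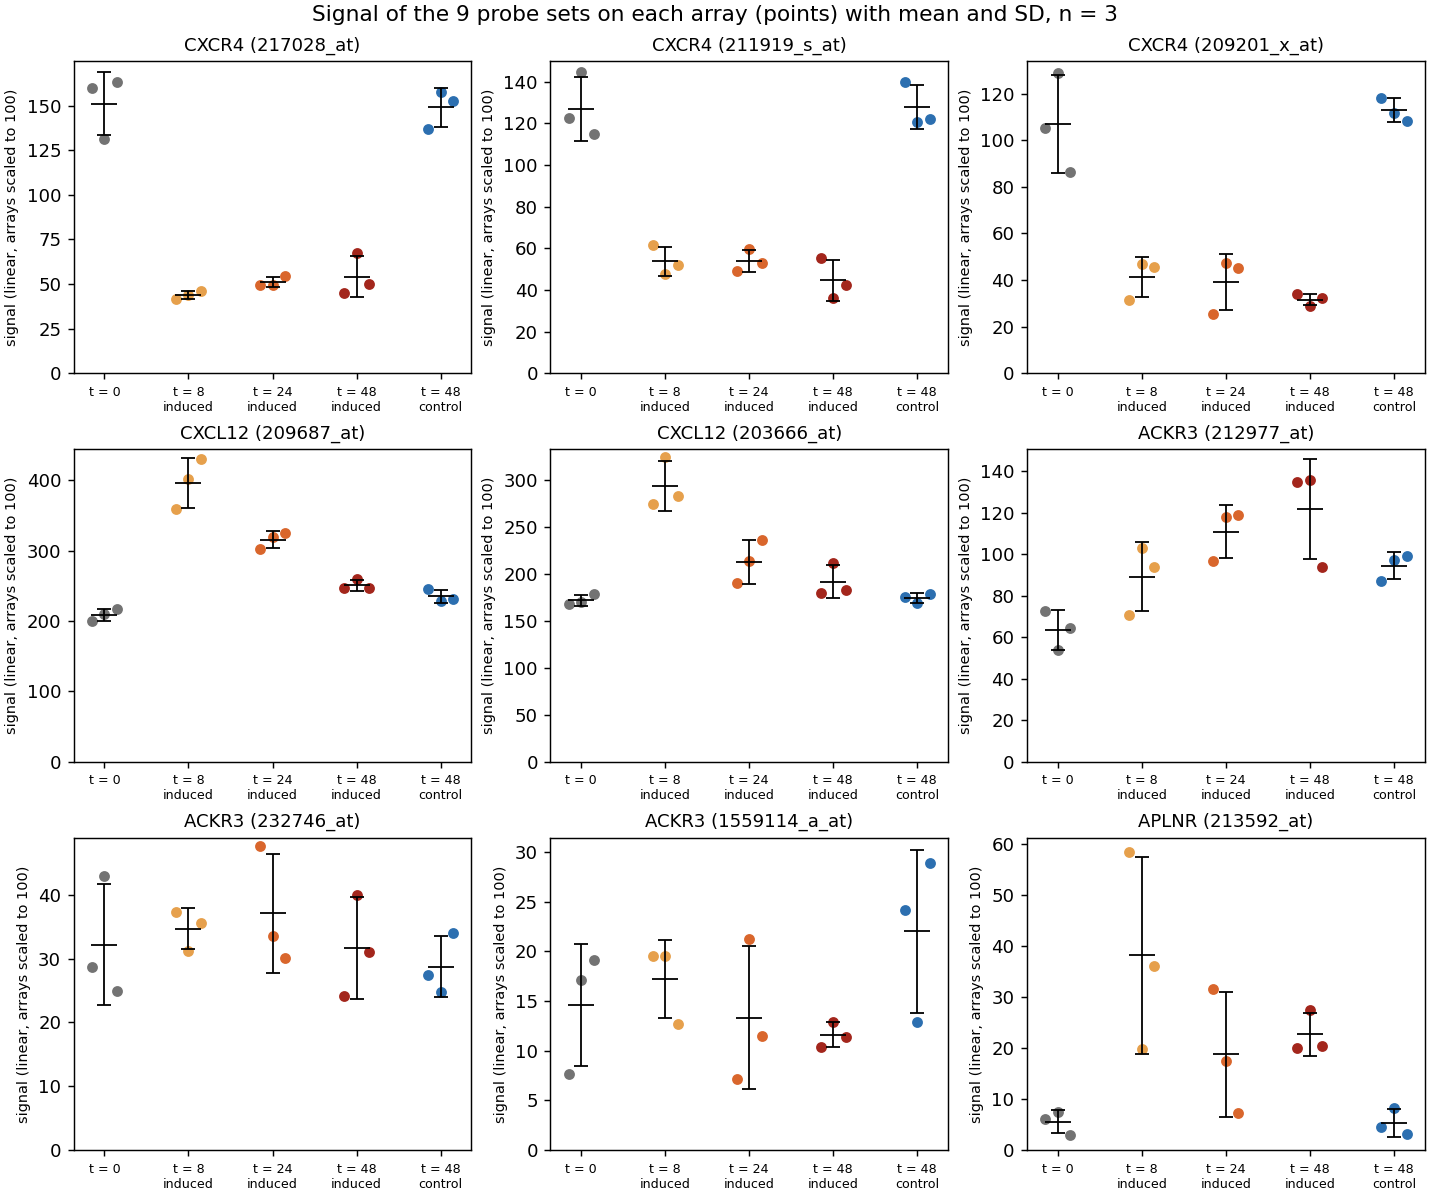
Signal of each of the 9 probe sets of CXCR4, CXCL12, ACKR3 and APLNR on each of the 15 arrays (points, linear axis from 0), by group: t = 0, induced at t = 8, 24 and 48, and control at t = 48, with the mean as a dash and the SD of n = 3 as a bar. CXCR4 sits low in all induced groups, CXCL12 is highest at t = 8, and APLNR is at 3.0 to 8.3 in both uninduced groups.

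CXCL12, the ligand, was higher in induced cells at t = 8 than at t = 0, and its difference from controls at t = 48 did not pass the test. On 209687_at it read 199.8, 210.7 and 216.4 at t = 0, then 359.6, 401.6 and 430.2 at t = 8 and 302.9, 319.8 and 324.8 at t = 24. Readings at t = 48 were 246.5, 260.3 and 246.6 in induced cells, against 245.8, 227.8 and 231.6 in controls. All arrays of t = 8 lay above all others, those of t = 24 came next, and those of induced cells at t = 48 just cleared the controls, at 246.5 against 245.8 for the nearest pair.

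CXCL12 rose 1.87-fold at t = 8, to 397 ± 35.5 in induced cells, against 209 ± 8.43 at t = 0 (log2 difference 0.91, SE 0.085, limma adjusted p = 0.000209, n = 3 each). At t = 24 it was 1.50-fold higher than at t = 0, at 316 ± 11.5 (log2 difference 0.58, limma adjusted p = 0.00131). The second probe set, 203666_at, rose 1.68-fold at t = 8, with 274.5, 324.9 and 282.7 in induced cells, against 168.2, 170.2 and 178.7 at t = 0 (log2 difference 0.75, SE 0.10, limma adjusted p = 0.00303). At t = 24 this probe set read 190.1, 213.4 and 236.8, and its difference from t = 0 of 0.30 did not pass (limma adjusted p = 0.121). The probe sets thus both passed at t = 8 and gave different calls at t = 24.

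From t = 8 to t = 24 the signal of 203666_at fell by 0.45 on the log2 scale (limma adjusted p = 0.0389). That call was lost in 4 of 10 other settings, and in 5 of 6 fits without 1 array. Adjusted p was 0.139 and 0.0910 without replicates 1 and 2 of t = 24, and 0.0658, 0.134 and 0.0732 without replicates 1, 2 and 3 of t = 8. For 209687_at the step from t = 8 to 24 was -0.32 (limma adjusted p = 0.0695) and that from t = 24 to 48 was -0.32 (limma adjusted p = 0.0789).

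At t = 48, the difference of CXCL12 from controls did not pass on either probe set, although the 3 induced arrays read above the 3 control arrays on both. On 209687_at the log2 difference was 0.09, with a 95% interval of -0.09 to 0.28 (limma adjusted p = 0.569). On 203666_at it was 0.13, with an interval of -0.09 to 0.35 (limma adjusted p = 0.513), from 180.1, 211.9 and 183.1 in induced cells, against 175.5, 168.6 and 179.1 in controls. Against t = 0 the induced cells at t = 48 differed by 0.26 and 0.15 (limma adjusted p = 0.0667 and 0.380), and the controls by 0.17 and 0.02 (limma adjusted p = 0.624 and 0.986). The intervals against controls leave room for a change of either sign, and that of 209687_at against t = 0 ran from 0.08 to 0.44.

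CXCL12 is made by stromal cells in many tissues, and some fibroblast markers rose in these arrays while others did not. Of 9 such markers, 4 (COL1A1, PDGFRA, THY1, ACTA2) lay above the array median on all 15 arrays. The summed signal of the 9 was 1677.9 to 1880.9 at t = 8, 2520.4 to 2589.9 at t = 24 and 2093.3 to 2145.0 in induced cells at t = 48, against 1563.6 to 1660.3 in controls and 1250.2 to 1409.3 at t = 0. Most of the sum was COL1A1 and PDGFRA, which averaged 919 and 1198 at t = 24. COL1A1, a fibrillar collagen chain, rose at t = 8 to 579, against 350 at t = 0 (limma adjusted p = 0.0383, lost in 5 of 6 fits without 1 array), the 1 of 8 tested markers to pass there, against 1.47% of genes. At t = 24, 4 of 8 (LUM, COL1A1, COL3A1, PDGFRA) rose, against 7.93% of genes that passed. At t = 48 against controls 2 of 8 rose, against 6.27% of genes, LUM by 2.53 to 67.8 against 7.43 and COL3A1 by 1.06 to 54.8 against 23.7 (limma adjusted p = 2.2e-05 and 0.0163). LUM reached the array median on 6 arrays, those of induced cells at t = 24 and 48, so it entered the test only through the groups where it is high and the counts with it are not read as a result. The other tested markers did not pass at t = 48 against controls. COL1A1 and PDGFRA differed there by 0.42 and 0.40, and THY1, ACTA2, DCN and PDGFRB by -0.31, -0.24, -0.20 and -0.04. COL3A1 differed by -0.62 at t = 8 against t = 0, which did not pass (limma adjusted p = 0.36). COL1A2 lay between 1.6 and 25.1 and DCN between 3.9 and 26.6 on all 15 arrays. The part of these markers in the CXCL12 signal was not tested.

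ACKR3, the scavenging receptor, was higher on its brightest probe set at t = 24 and 48 than at t = 0, and was not separated from controls at t = 48. On 212977_at it read 72.8, 53.6 and 64.4 at t = 0, then 70.8, 102.9 and 93.9 at t = 8 and 96.8, 118.2 and 118.9 at t = 24. In induced cells at t = 48 it read 135.0, 135.8 and 93.8, against 87.3, 97.4 and 99.2 in controls. The arrays of t = 24 and of t = 48 lay above those of t = 0, and so did the controls, while induced and control cells overlapped at t = 48.

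Against t = 0, ACKR3 rose 1.70-fold at t = 24, to 111 ± 12.6 against 63.6 ± 9.62 (log2 difference 0.76, SE 0.17, limma adjusted p = 0.0201). By t = 48 it had risen 1.83-fold, to 122 ± 24.0 (log2 difference 0.87, limma adjusted p = 0.00662, n = 3 each). The call at t = 24 was lost without replicate 2 or 3 of t = 24 (adjusted p = 0.0677 and 0.0638) and without replicate 2 or 3 of t = 0 (adjusted p = 0.0817 and 0.0576). Control cells at t = 48 averaged 94.6 ± 6.41, a difference from t = 0 of 0.54 that did not pass (limma adjusted p = 0.309). The one contrast with controls of the same time gave 0.33, with a 95% interval of -0.04 to 0.70 (limma adjusted p = 0.304), or 0.50 without the arrays whose hybridisation controls were weak. ACKR3 thus passed against t = 0 and not against uninduced cells of the same time.

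The other ACKR3 probe sets were dim and passed in none of the 7 comparisons. Probe set 232746_at averaged 31.7 ± 7.97 in induced cells at t = 48, against 28.7 ± 4.78 in controls, and its log2 differences over the 7 comparisons lay between -0.20 and 0.18 (SE 0.21). Probe set 1559114_a_at averaged 11.6 ± 1.26 in induced cells at t = 48, against 22.0 ± 8.22 in controls, a difference of -0.65 (SE 0.31, limma adjusted p = 0.264), and reached the array median on 4 of 15 arrays. The ACKR3 probe sets thus did not give 1 direction at t = 48.

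Of the 5 probe sets of CXCL12 and ACKR3, 0 passed at t = 48 against controls in limma, where 5.13% of all probe sets passed, and 0 had an unadjusted p under 0.05. Against t = 0, 2 of 5 passed at t = 8 (1.11% of all), 2 of 5 at t = 24 (6.08% of all), 1 of 5 at t = 48 (11.4% of all) and 0 in controls (0.326% of all), where 1 had an unadjusted p under 0.05. Between induced times, 1 of 5 passed at t = 24 against t = 8 (2.38% of all) and 0 at t = 48 against t = 24 (2.25% of all), with 1 under an unadjusted p of 0.05. Groups did not overlap for 2 of 5 at t = 48 against controls (28.9% of all). Against t = 0 they did not overlap for 2 of 5 at t = 8 (13.3% of all), 3 of 5 at t = 24 (25.2%), 3 of 5 at t = 48 (33.2%) and 2 of 5 in controls (16.3%). The 2 calls at t = 8 are both probe sets of CXCL12, which are not independent, so this count is not read beyond that 1 gene. Both were lost with only the groups compared in the fit (limma adjusted p = 0.0613 and 0.0940).

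**Figure D2:**
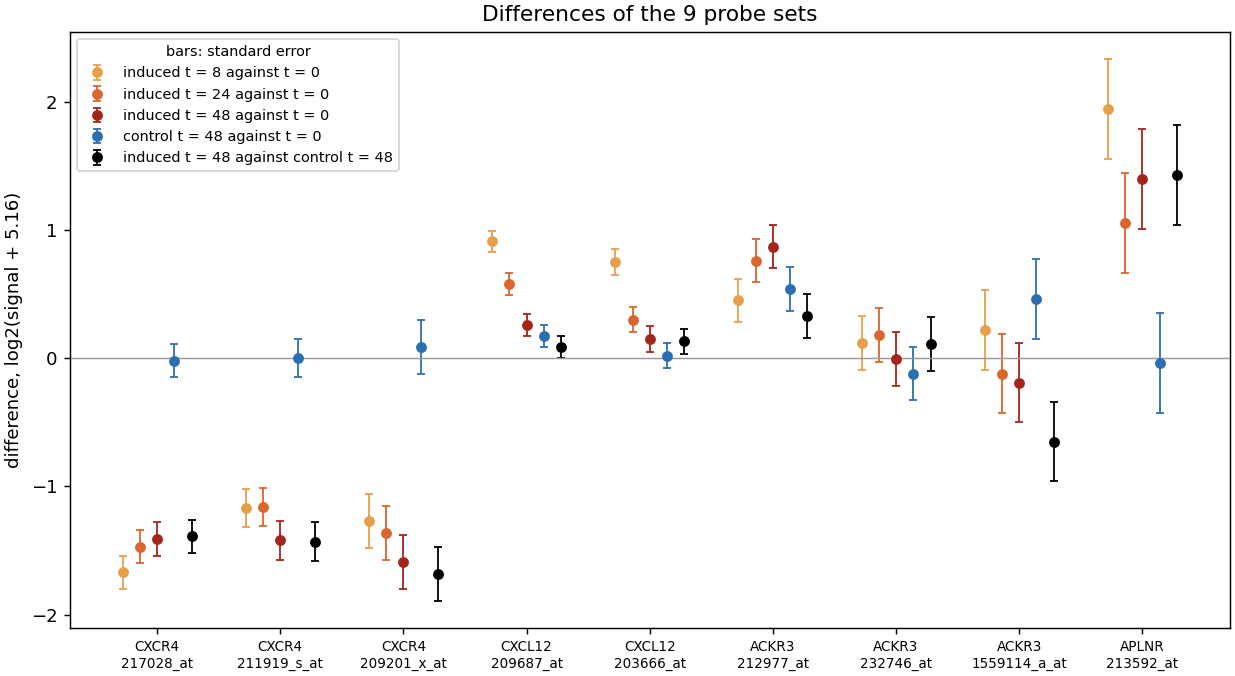
Log2 difference of each of the 9 probe sets in the 5 comparisons with t = 0 or with controls (points, by colour), with bars of 1 SE from the limma fit. CXCR4 lies between -1.68 and -1.16 wherever induced cells are set against uninduced ones, CXCL12 is highest at t = 8, at 0.91 and 0.75, and APLNR lies at 1.05 to 1.94 in those comparisons with bars of 0.39.

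APLNR was under the array median in uninduced cells and reached it on some of the induced arrays. No detection call was used here. Its only probe set, 213592_at, read 6.1, 7.5 and 3.0 at t = 0, then 58.5, 19.9 and 36.1 at t = 8 and 31.7, 17.5 and 7.2 at t = 24. Readings in induced cells at t = 48 were 20.1, 27.5 and 20.5, against 4.5, 8.3 and 3.1 in controls. It reached the array median on 3 of 3 arrays at t = 8, on 1 at t = 24 and 1 induced array at t = 48, and on 0 of the 6 uninduced arrays. Induced and uninduced arrays did not overlap at t = 8 and 48, and overlapped at t = 24.

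The mean of APLNR was 38.2 ± 19.4 at t = 8, against 5.53 ± 2.30 at t = 0, a log2 difference of 1.94 or 3.84-fold more (SE 0.39, SD over n = 3). At t = 24 it was 18.8 ± 12.3 and the difference 1.05, which became 0.67 without replicate 1, an array with weak hybridisation controls. By t = 48 it was 22.7 ± 4.16 in induced cells and 5.30 ± 2.69 in controls, a difference of 1.43 or 2.70-fold more. Controls differed from t = 0 by -0.04. These sizes hang on the offset, since the uninduced signals are about as large as it: with an offset of 1 or 16 the difference at t = 8 was 2.53 or 1.27, and that at t = 48 against controls 1.98 or 0.86. Neighbouring induced times differed by -0.89 (t = 24 against 8) and 0.35 (t = 48 against 24), beside an SE of 0.39.

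APLNR is used as an endothelial gene, so endothelial markers were read beside it. Of 10, 8 (CDH5, TEK, TIE1, VWF, CLDN5, EMCN, ESAM, ERG) were under the array median on all 15 arrays. The summed signal of the 10 was 85.8 to 97.8 at t = 8, 89.8 to 102.7 at t = 24 and 65.0 to 102.6 in induced cells at t = 48, against 71.9 to 112.9 in controls and 52.7 to 87.7 at t = 0. KDR, the VEGF receptor, rose at t = 24 to 27.6, against 9.70 at t = 0 (limma adjusted p = 0.0440, lost in 5 of 6 fits without 1 array). It reached the array median on 6 arrays, all of induced cells, so it entered the test only through them and nothing is read from this call. PECAM1, the other tested marker, reached the median on 13 of 15 arrays and averaged 27.0 at t = 24, against 26.1 at t = 0. At t = 48 it averaged 20.6 in induced cells and 28.1 in controls (log2 difference -0.33, limma adjusted p = 0.476). Of 9 blood markers, 5 were under the median on all arrays, and their sums overlapped in all groups, at 66.1 to 154.5 at t = 8, against 64.5 to 160.5 at t = 0. The part of endothelial markers in the APLNR signal was not tested.

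Among other ligands of these receptors, ADM read higher in induced cells at t = 48. MIF, a cytokine that also binds CXCR4, lay between 4639.6 and 5832.1 and HMGB1, which forms a complex with CXCL12, between 4476.3 and 6364.4 over the 15 arrays. ADM, adrenomedullin, a peptide that ACKR3 can bind, reached the array median on 7 arrays, all of induced cells, so it entered the test only through the groups where it is high. It was the 1 of 4 tested ligands that passed at t = 48 against controls (6.27% of genes passed), a count from which nothing is read. It read 37.7, 43.0 and 37.2 in induced cells, against 14.8, 11.1 and 13.8 in controls (log2 difference 1.28, SE 0.18, limma adjusted p = 0.00138). Against t = 0 it rose by 1.20 at t = 48 (limma adjusted p = 0.00131). Both ADM calls held in all 11 other settings and with each of the 6 arrays left out. These fits use the same arrays through which ADM entered the test, so nothing is read from them either. Of the 4 ligands, 0 passed at t = 8 (1.47% of genes) or at t = 24 (7.93% of genes), where 1 and 3 had an unadjusted p under 0.05. The median log2 difference of these 4 ligands was -0.01 at t = 48 against controls and 0.05 at t = 8. CXCL11, which binds ACKR3 and CXCR3, lay between 0.2 and 6.9. The ligands of APLNR did not pass the filter: APLN lay between 3.8 and 23.1 and APELA between 0.2 and 9.3.

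MMP2, a secreted protease that can cut CXCL12, peaked at t = 24. It read 337.1, 360.8 and 395.8 at t = 24, against 160.6, 136.7 and 144.2 at t = 0, a rise of 1.28 (SE 0.10, limma adjusted p = 1.5e-05). It then fell by 0.95 from t = 24 to t = 48 (limma adjusted p = 0.000299). By t = 48 it averaged 186 ± 18.2 in induced cells and 138 ± 5.82 in controls, a difference of 0.41 (limma adjusted p = 0.0379) that was lost in 5 of 11 other settings and in 5 of 6 fits without 1 array. It was the 1 of 3 processing and coreceptor genes that passed at t = 24 against t = 0 (7.93% of genes passed) and at t = 48 against controls (6.27% of genes). The median of the 3 was 0.11 in the second of these contrasts.

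Receptor kinases, arrestins and sorting genes switch off or recycle receptors of this class. Of 11 tested, 2 rose at t = 48 against controls and 0 fell, where 6.27% of genes passed. In this contrast 5 of the 11 had an unadjusted p under 0.05. GRK5, a receptor kinase, read 85.2, 73.8 and 84.9 in induced cells, against 31.4, 44.6 and 48.3 in controls (log2 difference 0.91, SE 0.19, limma adjusted p = 0.0169, lost in 3 of 6 fits without 1 array). Against t = 24, where it averaged 18.8 ± 4.65, GRK5 rose by 1.86 at t = 48 (limma adjusted p = 0.000192). GRK3, a kinase that acts on CXCR4, read 642.4, 646.9 and 581.3 in induced cells, against 438.4, 434.1 and 426.5 in controls (log2 difference 0.52, SE 0.073, limma adjusted p = 0.00137). That call held in all 11 other settings and with each of the 6 arrays left out. GRK2, another receptor kinase, went the other way, at 77.8, 80.3 and 73.1 in induced cells, against 121.7, 111.8 and 105.2 in controls. Its log2 difference of -0.52 did not pass (limma adjusted p = 0.0838). Against t = 0, GRK3 passed at t = 24, at 0.49 (815 against 578, limma adjusted p = 0.00162), and fell by 0.38 from t = 24 to t = 48 (limma adjusted p = 0.0141). Controls at t = 48 were lower than t = 0, at 433 against 578 (log2 difference -0.41, limma adjusted p = 0.0351, lost in 6 of 6 fits without 1 array). Induced cells at t = 48, at 624, were not called against t = 0. The arrestin gene ARRB1 rose by 0.69 at t = 48, to 174 against 107 at t = 0 (limma adjusted p = 0.00963), and its contrast with controls of 0.41 did not pass (limma adjusted p = 0.131).

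The median log2 difference over all 12880 genes was -0.0135 at t = 48 against controls and 0.00549, -0.0122 and -0.0162 at t = 8, 24 and 48 against t = 0. Over the kinases, arrestins and sorting genes it was 0.00 at t = 48 against controls, and 0.01, -0.08 and 0.01 at t = 8, 24 and 48 against t = 0. At t = 8, 0 of 11 passed (3 under an unadjusted p of 0.05), at t = 24 1 rose and 3 fell (7.93% of genes passed), and at t = 48 2 rose and 1 fell against t = 0 (13.8% of genes passed). Those that fell at t = 24 were GRK5 by 0.72, VPS4A, an ATPase of endosomal sorting, by 0.49, and USP14, a deubiquitinase, by 0.28 (limma adjusted p = 0.0447, 0.0312 and 0.0437), and 5, 4 and 6 of 6 fits without 1 array lost these calls. At t = 48 against t = 0, GRK5 and ARRB1 rose and USP14 fell by 0.26 (limma adjusted p = 0.0374, lost in 6 of 6). G proteins and signalling genes downstream of the receptors followed: of 26 tested, 0 passed at t = 48 against controls (6.27% of genes) and 0 at t = 8 (1.47% of genes), with 3 and 2 under an unadjusted p of 0.05 and medians of -0.09 and -0.02. Against t = 0, where 7.93% of genes passed at t = 24, 1 of these rose at that time (GNG2, a G protein gamma subunit, by 0.52, limma adjusted p = 0.0308). At t = 48, where 13.8% of genes passed, GNG2 rose and RAC1, a small GTPase of cell movement, fell by 0.26 (limma adjusted p = 0.0492). In fits without 1 array, RAC1 lost its call in 6 of 6 and GNG2 in 6 of 6 at t = 24 and 5 of 6 at t = 48.

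Of 5 tested regulators of CXCR4 transcription, 0 passed at t = 8 against t = 0 and 0 at t = 48 against controls (1.47% and 6.27% of genes), with 1 and 2 under an unadjusted p of 0.05 and medians of -0.07 and 0.08. NRF1, whose motif stands in the window shown above, averaged 101 ± 16.3 at t = 8, against 109 ± 8.90 at t = 0 (log2 difference -0.11, limma adjusted p = 0.935). YY1, described as a repressor of CXCR4, averaged 1624 ± 98.0 at t = 8 and 1702 ± 137 at t = 0 (limma adjusted p = 0.965). HIF1A, which raises CXCR4 in hypoxia, rose at t = 24 by 0.37, to 3140 against 2431 at t = 0 (limma adjusted p = 0.0182, lost in 4 of 6 fits without 1 array). EPAS1, its paralogue, was dim and under the array median in uninduced cells, at 3.7 to 15.6. It thus entered the test only through induced arrays, where it is higher. At t = 8 EPAS1 averaged 24.3, against 7.77 at t = 0, a difference of 1.22 that did not pass (limma adjusted p = 0.0952). At t = 24 it averaged 22.7 and rose by 1.16 (limma adjusted p = 0.0422, lost in 7 of 11 other settings). EPAS1 also passed at t = 48 against t = 0, by 1.06 (limma adjusted p = 0.0418, lost in 8 of 11 other settings). Its difference from controls at t = 48 was 1.05 and did not pass (limma adjusted p = 0.0674). The part of these regulators in the CXCR4 signal was not tested.

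**Figure D3:**
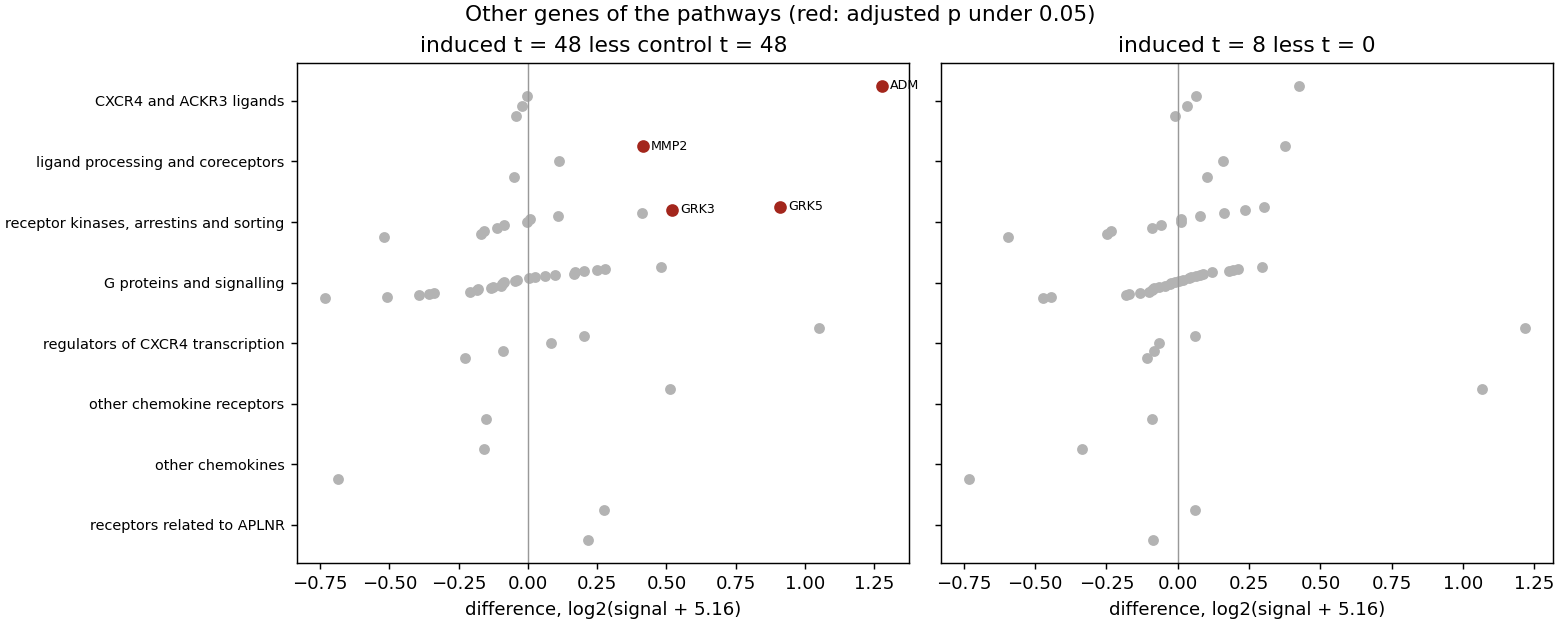
Log2 difference of each tested gene of the pathway lists (points) in induced cells at t = 48 less controls and at t = 8 less t = 0, by list, in red with the name for genes with a limma adjusted p under 0.05 and grey for the others. MMP2, GRK3 and GRK5 passed at t = 48 against controls, as did ADM, which entered the test only through induced arrays. At t = 8, 0 genes of these lists passed.

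Most other chemokine receptors and chemokines on the array did not pass the filter on low signal. Of 19 other chemokine receptors on the array, 2 (CCR10 and CXCR1) passed the filter, and of 29 other chemokines, 2 (CCL19 and CCL28) did. None of these 4 genes passed the limma test in the comparisons of induced cells with controls or with t = 0, although CXCR1 and CCL28 had an unadjusted p under 0.05 at t = 8, and CXCR1 at t = 48 against t = 0. CXCR3, which shares CXCL11 with ACKR3, lay between 1.4 and 22.9, and CXCR2 between 0.4 and 13.2. CCR10 was above the median on all 15 arrays, at 22.3 to 43.0. Of 6 receptors related to APLNR, 2 (AGTR1, the angiotensin receptor, and BDKRB1, a bradykinin receptor) were tested and neither passed at t = 8 or at t = 48 against controls (0 and 1 at an unadjusted p under 0.05).

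The patterns most like that of CXCR4 217028_at were sought among 12879 other genes by the root mean square difference of centred log2 profiles over the 15 arrays. The closest was PRSS12, a secreted serine protease, at 0.26, against a median of 0.78 over all genes. PRSS12 averaged 272 ± 14.2 at t = 8, 325 ± 33.9 at t = 24 and 295 ± 13.5 in induced cells at t = 48, against 655 ± 20.1 in controls and 615 ± 68.6 at t = 0. VAV3 followed at 0.30, with 134 ± 1.95 in induced cells at t = 48 and 249 ± 30.4 in controls. Next came PTPN3 at 0.33, PAG1 at 0.33, PLSCR1 at 0.34 and DOK5 at 0.35. All 6 were lower in every induced group than in both uninduced ones, which is what the measure selects.

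For APLNR the nearest profiles lay farther off, with a median of 0.92 over all genes. FAM30A stood at 0.51 and TIMP3, an inhibitor of metalloproteinases, at 0.52. TIMP3 averaged 317 ± 58.2 at t = 8, 227 ± 35.1 at t = 24 and 391 ± 40.8 in induced cells at t = 48, against 85.7 ± 10.9 in controls and 88.3 ± 6.73 at t = 0. PEAR1 and ADORA1 at 0.58 and MCHR1 and PPFIA4 at 0.59 made up the 6. With an offset of 16, 3 of these 6 stayed among the 6 nearest.

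**Figure D4:**
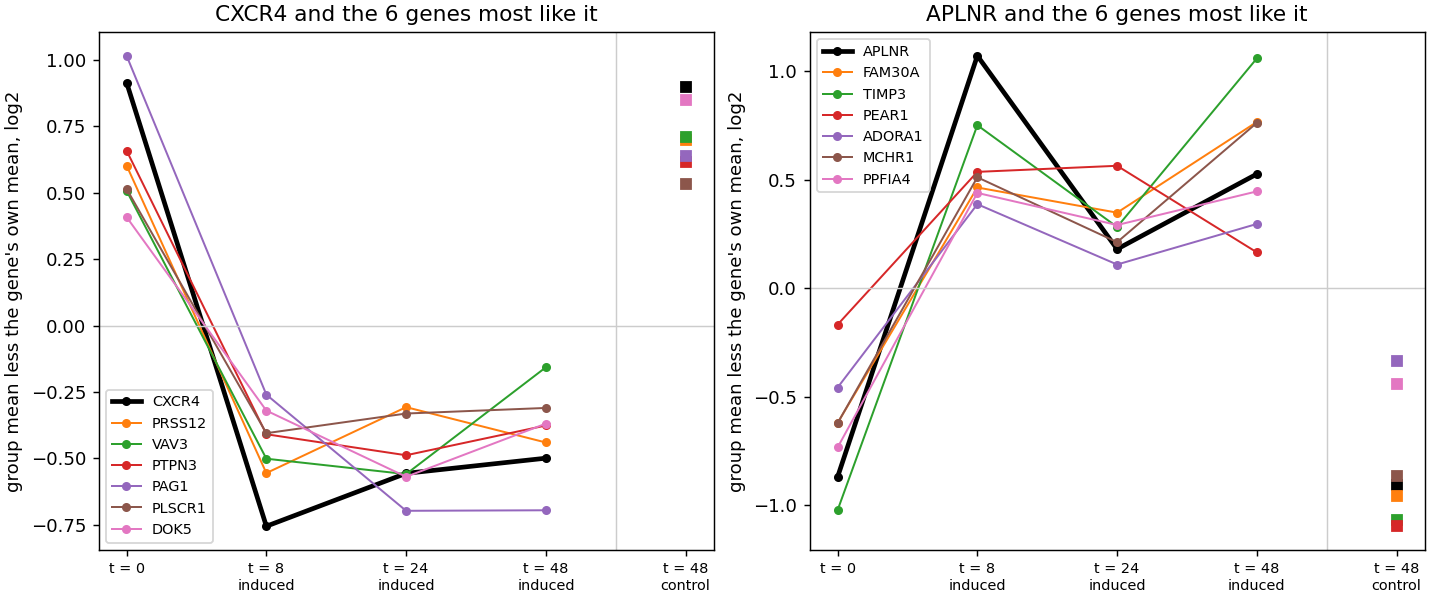
Group means of log2 signal less each gene's own mean (y axis, log2) by group (x axis), for CXCR4 and APLNR (thick black) and the 6 genes nearest to each (thin, coloured). Squares set apart on the right are controls at t = 48. The CXCR4 neighbours lie within 0.26 to 0.35 of it, and the APLNR neighbours within 0.51 to 0.59.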

How the data were processed

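Total RNA of 15 IMR32 samples was measured on a single-channel expression array of 54675 probe sets. The deposited values are the authors' linear signal intensities, for which the submitters' processing notes name GCOS and MAS5, and each array has the same trimmed mean (2% cut at each end). The array annotation gave 1 symbol to 41091 probe sets, several to 1801 and none to 11721, and 41037 of the first matched RefSeq (GRCh38.p14).

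From these, the 62 array controls were left out, log2(signal + 5.16) was taken, with the mean lower quartile of the arrays as offset, and probe sets at or above the array median on at least 3 of 15 arrays were kept. limma 3.58.1 (R 4.3.3) was fitted on 30676 probe sets over 5 groups, with 7 comparisons and Benjamini-Hochberg adjustment over all probe sets at 0.05. Tables were made with Python 3.11.15 and pandas 2.3.3. List genes are given by their brightest kept probe set, and named among those that passed, at most 5 a list and comparison, for the contrasts described. The 6 nearest profiles of CXCR4 and APLNR are named. Members and lists were chosen with earlier results of these data known. CXCR3, CXCR2, CXCL11, APLN, APELA and marker levels are named for their roles.

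On simulated data for t = 48 against controls (30676 probe sets), the fit recovered 62% of genes changed 2-fold and 88% of those changed 4-fold, with 7.41% of calls false. No 2 arrays were identical (0 pairs). Deviations of arrays with the same replicate number correlated between -0.33 and 0.19, so the numbers were not taken to pair samples. Other offsets, scalings, filters, variance models and left-out arrays were tried.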

Additional observations from a re-analysis of the deposited data

How the results depend on the processing

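No call on CXCL12 or ACKR3, and no difference of CXCR4 or APLNR between induced and uninduced cells, changed direction under the alternatives run. Described sizes moved with the offset: CXCR4 217028_at at t = 8 against t = 0 was -1.48 with an offset of 16. APLNR 213592_at was 1.98 and 0.86 at t = 48 against controls, 2.53 and 1.27 at t = 8, and 1.91 and 0.85 at t = 48 against t = 0, with offsets of 1 and 16. With only the groups compared in the fit, calls were lost for CXCL12 209687_at at t = 8 (0.91, adjusted p = 0.0613) and t = 24 (0.58, adjusted p = 0.0560), CXCL12 203666_at at t = 8 (adjusted p = 0.0940) and ACKR3 212977_at at t = 24 (0.76, adjusted p = 0.0772) and t = 48 (0.87, adjusted p = 0.0541), each against t = 0, where fewer arrays estimate the spread. With no filter the ACKR3 call at t = 24 was lost (0.76, adjusted p = 0.0559), where more probe sets are tested. With 1 probe set per gene, and with an intensity trend, CXCL12 209687_at passed at t = 48 against t = 0 (0.26, adjusted p = 0.0352 and 0.0476), at t = 24 against t = 8 (-0.32, adjusted p = 0.0287 and 0.0387) and at t = 48 against t = 24 (-0.32, adjusted p = 0.0328 and 0.0487). Leaving out 1 array at a time, ACKR3 212977_at at t = 24 ranged from 0.66 to 0.86 (adjusted p from 0.0265 to 0.0817). CXCR4 217028_at ranged from -1.55 to -1.29 at t = 48 against controls and from -1.77 to -1.61 at t = 8, and APLNR from 1.28 to 1.63 and from 1.61 to 2.28. The causes of other shifts were not tested.

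With the replicate number as a block, the CXCL12 203666_at call at t = 24 against t = 8 was lost (adjusted p = 0.0547). The numbers are not known to pair the arrays. At t = 48 against controls 1574 probe sets passed, against 737 with no filter, 790 with only these groups, 1043 without the arrays with weak controls and 763 to 1071 with 1 array left out. For t = 8 against t = 0, 339 passed, against 191 with no filter, 5 with only these groups and 197 to 241 with 1 array left out. For t = 24 against t = 0, 1864 passed, against 925, 436 and 1061 to 1337 under those settings and 1145 without the weak arrays. For t = 48 against t = 0, 3506 passed, against 1958, 1350 and 1905 to 2789, and 2331 with 1 probe set per gene. For controls against t = 0, 100 passed, against 33, 0 and 18 to 72, and 164 with an intensity trend. For t = 24 against t = 8, 731 passed, against 268, 48 and 320 to 530, 1272 with a trend and 342 without the weak arrays. For t = 48 against t = 24, 691 passed, against 444, 205 and 422 to 688, and 411 without the weak arrays. Signals near the offset, as for APLNR in uninduced cells, limit what sizes can be stated.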
